A study of Mus musculus with 12 samples.

Results

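Kruppel-like factors (KLFs) are transcription factors that bind GC-rich DNA and CACCC boxes through zinc fingers at their C-terminal end, while their N-terminal parts recruit different coactivators and corepressors. Several of them are early-response genes, and Klf2 is known for holding T lymphocytes and endothelial cells in a resting state. Klf4, Klf6 and Klf10 are also known from the control of blood cell differentiation and of responses to growth factors. The 8 KLF genes described here were Klf2, Klf3, Klf4, Klf6, Klf7, Klf9, Klf10 and Klf13, out of 18193 genes on the array. They were chosen with earlier results of these data known, so counts of members set against all genes are descriptions. They were taken by name, through 30 of the 34945 probe sets that carry exactly 1 gene symbol. Each gene was represented by the probe set with the highest mean log2 signal over all 12 arrays, and its other probe sets are described beside it.

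The study measured gene expression in haematopoietic stem cells (HSCs), which maintain all blood lineages and were taken from the bone marrow of mice with and without an activating Nras allele. Nras encodes a RAS-family GTPase upstream of the RAF, MEK and ERK kinases. The 4 groups were GFPhigh and GFP- HSCs of NrasG12D/+ mice (called Nras below) and GFPhigh and GFP- HSCs of wild-type mice, with 3 biological replicates in each. The labels call GFPhigh cells quiescent and GFP- cells cycling. All mice, wild-type ones included, had doxycycline in their water for 6 weeks, and HSCs were sorted by flow cytometry 12 weeks after its removal. The labels give no age, strain or sex, no surface markers of the sort, no driver of the GFP or of the Nras allele, and no number of mice per sample.

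Values are MAS5 signals, the linear intensity units of Affymetrix arrays, and levels of different genes are not set against each other because probe sets differ in brightness. Array medians ranged from 44 to 129.6 units. All 8 KLF genes passed the filter on low values, with signals above the array median on 11 or 12 of the 12 arrays. Of 10 HSC markers on the array, 8 (Kit, Procr, Slamf1, Cd34, Mecom, Hlf, Meis1 and Gata2) were above the array median on all 12. Of the lists for other cell types, some markers were above it on all 12 arrays (Pecam1, Vwf, S100a8, S100a9, Lyz2, Cd79b and Car2) and some on 0 (Plvap, Lepr, Cd14 and Cd3g), the rest lying between. Array weights from limma, which are low for arrays that deviate from their group, were lowest at 4 arrays, with 0.403 and 0.503 for Nras GFPhigh replicates 1 and 2, 0.308 for Nras GFP- replicate 1 and 0.522 for wild-type GFPhigh replicate 2. The remaining 8 arrays had weights of 0.903 to 2.46. In all groups replicate 3 had Xist signals of 91.8 to 205.1, against 5773.4 to 11480.7 in replicates 1 and 2. Its signals of the Y-linked gene Eif2s3y were 3876.6 to 4544.9, against 2.3 to 674.7 in replicates 1 and 2. The 674.7 was that of Nras GFPhigh replicate 2. Replicate 3 thus differs from the others in both of these sex-linked transcripts. p-values set differences between groups against the spread between the biological replicates, which limma moderates over genes. In sorted bulk samples, fewer cells that express a gene and less RNA per cell cannot be told apart.

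Klf6 and Klf2 had the smallest p-values of the 8 genes between GFPhigh and GFP- HSCs, so the sequences before their start sites are shown, from RefSeq on build GRCm38.p6. Each covers the 250 bases before the annotated start, 5′ to 3′ on the gene's strand, at chr8:72318812-72319061 on the plus strand for Klf2 and chr13:5861239-5861488 on the plus strand for Klf6. Capitals in Klf2 mark the match to the MEF2 site, the motif of the MEF2 factors through which the kinase ERK5 induces Klf2. Capitals in Klf6 mark CCAAT on either strand, the core of the CCAAT box.
Klf2: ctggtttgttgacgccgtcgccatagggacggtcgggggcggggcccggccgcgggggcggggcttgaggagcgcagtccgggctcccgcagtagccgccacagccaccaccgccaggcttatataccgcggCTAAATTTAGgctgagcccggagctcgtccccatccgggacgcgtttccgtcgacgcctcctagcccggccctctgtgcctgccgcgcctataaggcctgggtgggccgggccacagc
Klf6: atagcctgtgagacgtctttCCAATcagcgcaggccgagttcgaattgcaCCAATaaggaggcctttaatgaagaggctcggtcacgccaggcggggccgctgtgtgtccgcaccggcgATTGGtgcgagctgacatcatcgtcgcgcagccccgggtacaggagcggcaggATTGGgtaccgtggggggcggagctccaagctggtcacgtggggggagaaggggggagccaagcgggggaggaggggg
The MEF2 match lay 118 bases before the Klf2 start, and 2.92% of 32851 windows of the same length held 1. CCAAT occurred 4 times before Klf6, at 230, 200, 131 and 78 bases from the start, and 33.8% of all windows held it. The GC box GGGCGG, a sequence that SP factors and KLFs bind, was present in 6 of the 7 KLF windows and in 32.7% of all windows, both strands searched. It occurred 6 times before Klf3, 4 times before Klf4, 3 times before Klf13, 2 times before Klf2, and 1 time before each of Klf6 and Klf7, and it was not among the letters of the Klf9 window. GC content was 71.2% in the Klf2 window and 64.8% in the Klf6 window, where the median over all windows was 52.4%. These matches describe the letters of the windows and are no evidence of binding in these cells.

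Of the mainly activating members, Klf6 is described first: within each genotype its signals were higher in GFPhigh than in GFP- HSCs. Klf6 is an early-response factor induced by injury and cell activation, and mouse embryos without it have defective yolk sac blood formation. Its signal was 10410.8, 7765.7 and 5817.4 units in Nras GFPhigh replicates 1, 2 and 3, against 3603, 4262.8 and 4405.1 in Nras GFP- HSCs. In wild-type mice it was 5269.8, 5526.7 and 5034.5 in GFPhigh HSCs, against 3865, 2679 and 3711.9 in GFP- HSCs. All 6 GFPhigh samples were above all 6 GFP- samples, and the highest value was that of Nras GFPhigh replicate 1. The group means were 7998 ± 2305 in Nras GFPhigh, 4090 ± 428 in Nras GFP-, 5277 ± 246 in wild-type GFPhigh and 3419 ± 645 in wild-type GFP- HSCs (SD, n = 3 each). Ordered by level, Nras GFPhigh came first, then wild-type GFPhigh, Nras GFP- and wild-type GFP- HSCs, and of these neighbours only the last 2 overlapped.

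Klf2, a factor of resting T lymphocytes and of endothelium under flow, had signals of 2016.3, 1098.7 and 479 units in Nras GFPhigh HSCs, against 125.4, 984.6 and 248.1 in Nras GFP- HSCs. In wild-type mice the signals were 618.5, 402.8 and 561.9 in GFPhigh HSCs, against 232.2, 153.3 and 338.3 in GFP- HSCs. All 3 wild-type GFPhigh samples were above all 3 wild-type GFP- samples, whereas in Nras mice the value of GFP- replicate 2 lay among the GFPhigh values. Nras GFPhigh HSCs had the highest mean, 1198 ± 773, and wild-type GFP- HSCs the lowest, 241 ± 92.8 (SD, n = 3 each). Wild-type GFPhigh HSCs (528 ± 112) and Nras GFP- HSCs (453 ± 465) lay between them and overlapped with each other.

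Klf4, a reprogramming factor that also promotes monocyte differentiation, read 5678, 440.6 and 391.6 units in Nras GFPhigh HSCs, against 338.4, 114.4 and 322.9 in Nras GFP- HSCs. In wild-type mice it read 337.3, 2 and 834.2 in GFPhigh HSCs, against 583.7, 109.2 and 1078.2 in GFP- HSCs. Single arrays set both extremes, since Nras GFPhigh replicate 1 exceeded all others and wild-type GFPhigh replicate 2 was close to 0. On this brightest probe set of Klf4 the 3 Nras GFPhigh values lay above the 3 Nras GFP- values, and the groups overlapped otherwise. Klf7, the closest relative of Klf6, known from neuron development, read 1256.2, 938.5 and 1809.6 units in Nras GFPhigh HSCs, against 66.3, 99.7 and 1025.3 in Nras GFP- HSCs. In wild-type mice it read 2219.6, 5.3 and 742.1 in GFPhigh HSCs, against 653.6, 1940.4 and 837 in GFP- HSCs. Its lowest value was again that of wild-type GFPhigh replicate 2, and the groups overlapped in both genotypes.

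Of the members that recruit the Sin3 corepressor, Klf9, a gene induced by glucocorticoids and thyroid hormone, read 8849.3, 8541.9 and 6008.1 units in Nras GFPhigh HSCs, against 5956.4, 6357.8 and 4380.6 in Nras GFP- HSCs. In wild-type mice it read 5045.5, 2297.5 and 6107.1 in GFPhigh HSCs, against 5194.3, 6358.2 and 5389.3 in GFP- HSCs. Nras GFPhigh replicates 1 and 2 were the 2 highest arrays, and wild-type GFPhigh replicate 2 was the lowest. The means were 7800 ± 1559 in Nras GFPhigh, 5565 ± 1045 in Nras GFP-, 4483 ± 1966 in wild-type GFPhigh and 5647 ± 623 in wild-type GFP- HSCs (SD, n = 3 each), and neighbours in the order of these means overlapped. Klf10, a gene induced early by TGF-beta, read 5995.5, 2806.5 and 1754.1 units in Nras GFPhigh HSCs, against 1917.6, 3935.6 and 2198.3 in Nras GFP- HSCs. In wild-type mice it read 3469.4, 5086.1 and 3310.8 in GFPhigh HSCs, against 3146.9, 3414.6 and 2959.3 in GFP- HSCs. Nras GFPhigh HSCs held both the highest and the lowest Klf10 value of the 12 arrays, so all groups overlapped. Klf13, known as an activator of the chemokine gene Ccl5 in T lymphocytes, averaged 281 ± 149 units in Nras GFPhigh, 628 ± 260 in Nras GFP-, 370 ± 336 in wild-type GFPhigh and 239 ± 150 in wild-type GFP- HSCs (SD, n = 3 each). Its values ran from 72.6 units in wild-type GFPhigh replicate 1 to 867.7 in Nras GFP- replicate 2, and all groups overlapped.

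Klf3, a repressor that recruits CtBP and acts in erythroid and B cells, averaged 787 ± 571 units in Nras GFPhigh, 612 ± 363 in Nras GFP-, 1168 ± 484 in wild-type GFPhigh and 790 ± 337 in wild-type GFP- HSCs (SD, n = 3 each). Its lowest values were 206.6 in Nras GFP- replicate 1 and 307.6 in Nras GFPhigh replicate 1, and its highest was 1670.9 in wild-type GFPhigh replicate 2. Each group overlapped with each of the others.

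**Figure D1:**
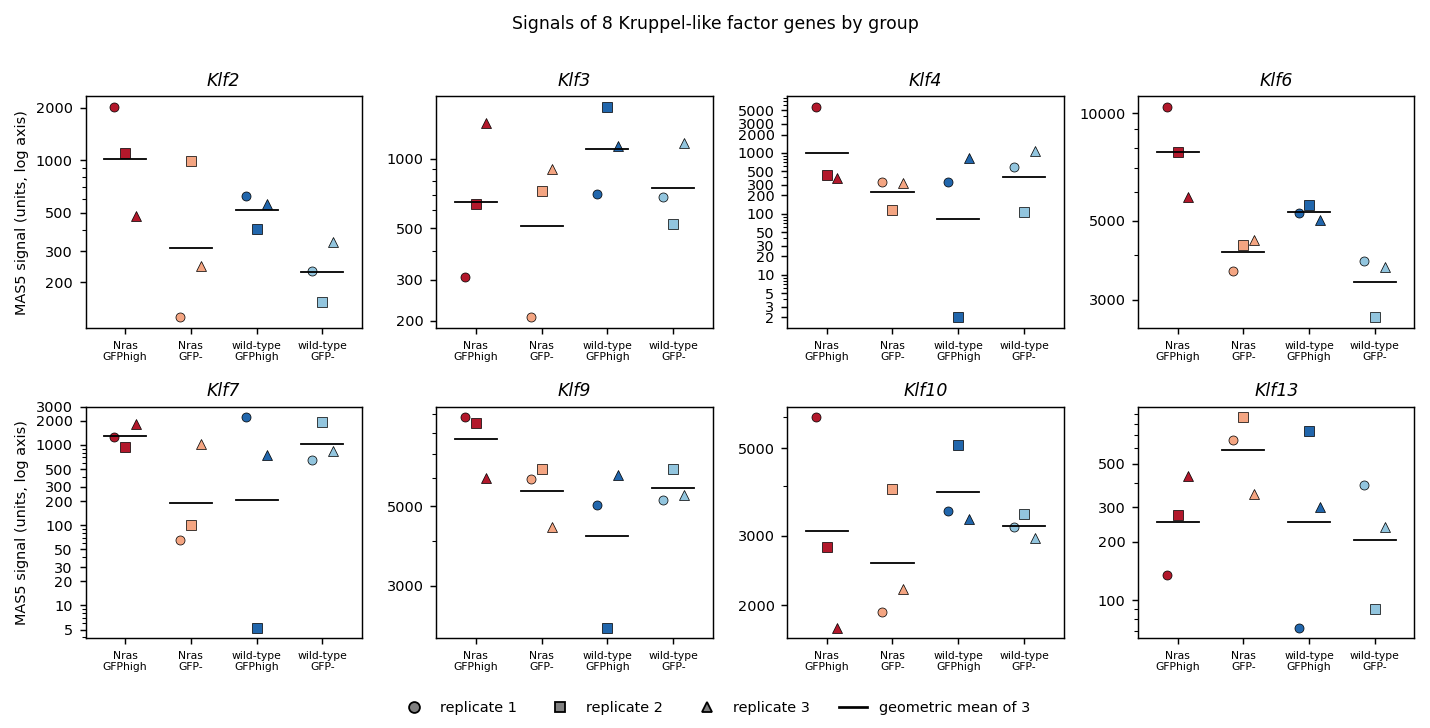
MAS5 signals (log axis) of the 8 KLF genes in the 12 samples, by group, with the replicate as symbol and the geometric mean of 3 samples as a line. Klf6 lies between 5034.5 and 10410.8 units in the 6 GFPhigh samples and between 2679 and 4405.1 in the 6 GFP- samples, while Klf4 and Klf7 read 2 and 5.3 units in wild-type GFPhigh replicate 2.

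The scatter of replicates differed widely among the 8 genes. The residual SD, the spread of replicates around their group mean on the log2 scale, was 0.27 for Klf6, and only 4.05% of tested genes had a smaller one. It was 0.44 for Klf9 and 0.55 for Klf10, also below the 25th percentile of tested genes (0.65). Klf3, Klf2 and Klf13 had 0.91, 0.98 and 1.13, around the median of 1.04. Klf7 and Klf4 had 2.60 and 2.76, and 96.1% and 97.2% of genes had smaller values. A difference between groups in Klf7 or Klf4 therefore had to be far larger than in Klf6 to exceed the spread.

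The first comparison asked how GFPhigh differed from GFP- HSCs when both genotypes were averaged, with 6 samples on each side. In limma's model over 12083 genes, Klf6 was higher in GFPhigh HSCs with a log2 fold change of 0.79 ± 0.17 (SE), 1.73-fold, at an unadjusted p = 0.000416 and an adjusted p = 0.219. It ranked 23 of 12083 genes by p, and it did not pass the threshold of an adjusted p under 0.05, which 0% of tested genes passed. Klf2 was higher in mean by 1.44 ± 0.59, with an unadjusted p = 0.0298 and an adjusted p = 0.54. These 2 of the 8 genes had an unadjusted p under 0.05, both being higher, against 8.87% of tested genes in either direction and 4.36% in the higher one. Klf6 was the only member whose 6 GFPhigh samples all lay above the 6 GFP- samples, as did 0.232% of tested genes (28 of 12083). Of the 8 log2 fold changes 6 were above 0, against 51% of tested genes, with a median of 0.26 for the members and 0.02 for all genes. The other 6 members ranged from -0.45 ± 0.66 for Klf13 to 0.45 ± 0.54 for Klf3, with standard errors larger than the differences, and the smallest unadjusted p among them was 0.358 (Klf10).

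The Klf6 difference was seen at all of its probe sets. The log2 fold changes of the 5 probe sets ran from 0.62 to 0.83, and 2 of them had an unadjusted p under 0.05. The 4 other probe sets had a Pearson correlation with the first over the 12 arrays of 0.72, 0.80, 0.64 and 0.48, on arrays and groups that they share. The second-brightest Klf6 probe set read 6124.7, 2460.6 and 1828.8 units in Nras GFPhigh HSCs, against 2472.4, 2121.1 and 1401 in Nras GFP- HSCs. In wild-type mice the same probe set read 2798.4, 3001.6 and 2510.5 in GFPhigh HSCs, against 1680.9, 1245 and 1613.6 in GFP- HSCs. The wild-type groups did not overlap on it, and the Nras groups did. On this probe set the log2 fold change over both genotypes was 0.76 ± 0.30 (SE).

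**Figure D2:**
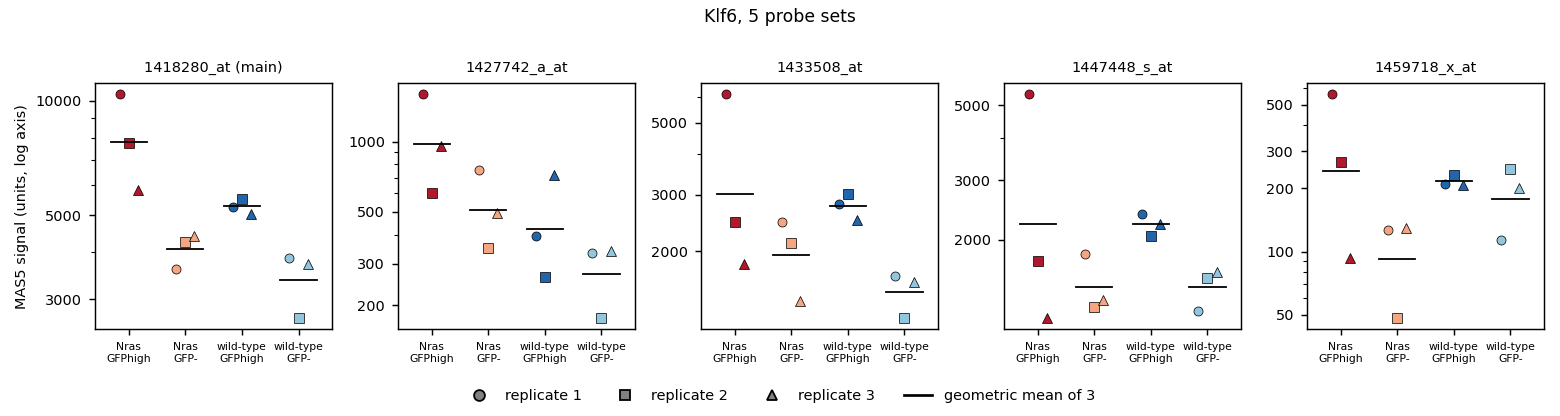
MAS5 signals (log axis) of Klf6 on each of its 5 probe sets by group, with the replicate as symbol and the geometric mean of 3 samples as a line. On every probe set the GFPhigh mean lies above the GFP- mean in both genotypes, and Nras GFPhigh replicate 1 is the highest array.

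For other members the probe sets differed more. All 7 probe sets of Klf3 had a log2 fold change above 0, from 0.06 to 1.80, none with an unadjusted p under 0.05. Of 7 Klf9 probe sets 6 were above 0, from -0.11 to 2.13, although the brightest 1 gave 0.02 ± 0.22. The second-brightest Klf9 probe set, whose correlation with the brightest was 0.002, read 7718.9, 6204 and 3036.7 units in Nras GFPhigh HSCs, against 1572.6, 3042.5 and 2937 in Nras GFP- HSCs. In wild-type mice it read 4167, 6682 and 3958.9 in GFPhigh HSCs, against 2973.3, 3563.9 and 3273.7 in GFP- HSCs. Wild-type groups did not overlap on this probe set, and its log2 fold change over both genotypes was 0.84 ± 0.26 (SE, unadjusted p = 0.00661, adjusted p = 0.548 in limma), so the probe sets of Klf9 disagree on this comparison. The 4 Klf7 probe sets ran from 2.12 down to -3.44 ± 1.05 (SE, unadjusted p = 0.00572, adjusted p = 0.548 in limma), the 2 of Klf4 from -0.81 to -0.11 and the 3 of Klf13 from -0.48 to 0.06, and the correlation of the others with the brightest was at most 0.48. Klf2 and Klf10 had 1 probe set each.

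Within wild-type mice the log2 fold change of GFPhigh over GFP- HSCs was 0.64 ± 0.24 (SE) for Klf6, with an unadjusted p = 0.0176 and an adjusted p = 1. It was 1.18 ± 0.84 for Klf2, whose groups did not overlap either. None of the 8 passed limma's adjusted threshold, and nor did any tested gene (0%). Klf6 was 1 member of 8 with an unadjusted p under 0.05, against 2.2% of tested genes and 1.05% in the higher direction. Klf2 and Klf6, 2 of 8, had all GFPhigh samples above all GFP- samples, against 5.3% of tested genes. Signs were positive for 5 of 8, against 47.8% of genes. Klf4 and Klf7 had -2.31 ± 1.87 and -2.31 ± 1.76, values that turned to 0.37 and 0.33 without wild-type GFPhigh replicate 2.

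Within Nras mice Klf6 was higher in mean in GFPhigh HSCs by 0.93 ± 0.24 (SE), 1.91-fold, with an unadjusted p = 0.00172 and an adjusted p = 0.201. Without Nras GFPhigh replicate 3 its value was 1.14 and its adjusted p 0.0406, past the threshold as 1 of 161 genes, and without Nras GFPhigh replicate 1 it was 0.72. Klf2 was higher in mean by 1.70 ± 0.84 (unadjusted p = 0.0624). Without the 4 arrays of lowest weight, which leaves replicate 3 as the only Nras GFPhigh array, Klf2 was at -0.05. As in wild-type mice, 0% of tested genes passed the adjusted threshold in limma, and Klf6 was 1 member of 8 with an unadjusted p under 0.05, against 12.2% of tested genes and 6.2% in the higher direction. Klf4 and Klf6, 2 of 8, did not overlap between GFPhigh and GFP- HSCs, against 6.7% of tested genes higher in that way. For Klf4 this held on the brightest probe set only, since its other probe set went the opposite way, with -1.41 ± 1.13. Signs were positive for 7 of 8, against 53.2%, and the median of the members was 0.71, against 0.08 for all genes. Klf13 was the exception in sign, with -1.22 ± 0.93.

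The test of the difference between genotypes, limma's interaction of Nras with the GFPhigh population, had no member past the adjusted threshold, nor any tested gene (0%). At an unadjusted p under 0.05 there were 0 of 8 members, against 4.68% of tested genes and 2.43% in the higher direction, and 5 of 8 were above 0, against 53.9%. For Klf6 the interaction was 0.29 ± 0.33 (SE) and for Klf2 0.53 ± 1.18, so the data do not separate the Nras response of these genes from the wild-type one. The smallest unadjusted p-values were 0.0579 for Klf9 (0.93 ± 0.45) and 0.0619 for Klf7 (5.07 ± 2.48), with an adjusted p = 0.956 for both. Both values rest in part on wild-type GFPhigh replicate 2: without it they were 0.50 for Klf9 and 2.43 for Klf7. The probe sets of Klf7 also disagreed in sign. Those other than the brightest gave interactions of -5.46 ± 2.66, -1.35 ± 2.10 and 2.81 ± 2.66 (SE), and the mean over probe sets gave 0.27.

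**Figure D3:**
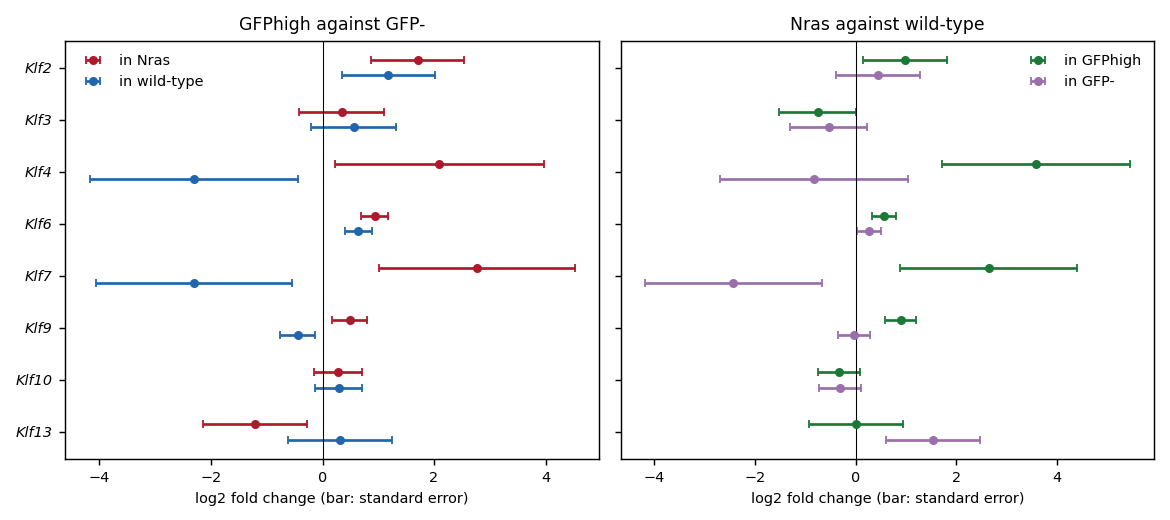
Log2 fold changes with standard errors of the 8 KLF genes for GFPhigh against GFP- HSCs in Nras and wild-type mice (left) and for Nras against wild-type mice in GFPhigh and GFP- HSCs (right). Klf6 has short bars to the right of 0 on the left panel (0.93 in Nras and 0.64 in wild-type), and Klf4 and Klf7 have the longest bars.

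Nras against wild-type mice, with both populations averaged, had its smallest member p at Klf6, with 0.42 ± 0.17 (SE), an unadjusted p = 0.0274 and an adjusted p = 0.609. The median of all tested genes was -0.15 here, so Klf6 lay further above the median gene than above 0. Under quantile normalization it was 0.19 and under median centring 0.70. The probe sets of Klf6 differed here, and those other than the brightest gave 1.05, 0.25, -0.001 and -0.39. No member passed the adjusted threshold, against 0.00828% of tested genes (1 gene). At an unadjusted p under 0.05 there was 1 of 8, against 7.78% of tested genes and 2.66% in the higher direction. Log2 fold changes were above 0 in 6 of 8, against 40.6%, and no member had all Nras samples above all wild-type samples, as 0.157% of genes did. Klf10 and Klf3 were lower in mean, by -0.32 ± 0.30 and -0.64 ± 0.54.

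In GFPhigh HSCs alone, Klf9 was higher in mean in Nras mice by 0.89 ± 0.32 (SE), 1.86-fold, with an unadjusted p = 0.0141 and an adjusted p = 0.51, and Klf6 by 0.56 ± 0.24, with an unadjusted p = 0.0342 and an adjusted p = 0.585. In limma 0% of tested genes passed the adjusted threshold. Klf6 and Klf9, 2 of 8, had an unadjusted p under 0.05, against 8.29% of tested genes and 3.17% in the higher direction. Klf6 alone, 1 of 8, had all 3 Nras samples above all 3 wild-type samples, against 5.12% of tested genes, and 6 of 8 log2 fold changes were above 0, against 46.1%. Neither value was uniform over probe sets: Klf6 gave 0.56, 1.20, 0.13, 0.00 and 0.16 on its 5, and Klf9 gave -1.93 to 1.49 on its 7. Klf9 had 0.47 without wild-type GFPhigh replicate 2, and Klf6 had 0.35 without Nras GFPhigh replicate 1. Without the 4 arrays of lowest weight, which leaves replicate 3 as the only Nras GFPhigh array, Klf9 had 0.11 and Klf6 0.18. In replicate 3 alone, the Nras minus wild-type difference was -0.02 for Klf9 and 0.21 for Klf6. Klf4 had the largest mean difference, 3.59 ± 1.87, which was -0.44 without the 4 arrays of lowest weight.

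In GFP- HSCs alone no member had an unadjusted p under 0.05, against 4.39% of tested genes and 0.968% in the higher direction, and 0% passed limma's adjusted threshold. Klf13 was higher in mean in Nras mice by 1.54 ± 0.93 (SE, unadjusted p = 0.124), with signals of 664.3, 867.7 and 352.3 units in Nras GFP- HSCs, against 390.2, 90.1 and 236.8 in wild-type GFP- HSCs. Those groups overlapped at 352.3 and 390.2. Klf7 was lower in mean by -2.43 ± 1.76 on its brightest probe set, whereas its other probe sets gave 3.69, 0.78 and 0.13. Log2 fold changes were above 0 in 3 of 8, against 40.6% of genes, and 0 of 8 had all Nras samples above all wild-type samples, against 4.07%.

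Nras GFPhigh replicate 1 was the highest of the 12 arrays for 5 of the 8 members (Klf2, Klf4, Klf6, Klf9 and Klf10), against 14.5% of tested genes. The summed signal of 16 immediate early genes, of which 15 were above the array median there, was also highest on that array, at 84455.6 units. It was 33859.3 and 48299 in Nras GFPhigh replicates 2 and 3, 31288.8 to 54856.3 in Nras GFP-, 27271.2 to 42037.5 in wild-type GFPhigh and 24440.1 to 36736.2 in wild-type GFP- HSCs. Of 9 granulocyte markers, 9 were above the array median in Nras GFPhigh replicates 1 and 2, with summed signals of 42847.4 and 57194.6, and 6 in replicate 3, with 5728.3. The same sum ran from 4044 to 4627 in Nras GFP-, 467.1 to 11695.4 in wild-type GFPhigh and 1993.7 to 12798.8 in wild-type GFP- HSCs. Of 10 monocyte markers 2 to 6 were above the array median in Nras GFPhigh HSCs, with sums of 3949.1 to 13255.7, against 3128.4 to 5593.9 over the other 3 groups. Most of that sum was Lyz2, at 3343.6 to 9049.8 units in Nras GFPhigh and 2797.2 to 3609.4 in Nras GFP- HSCs (1.08 ± 0.35, SE, unadjusted p = 0.00901, adjusted p = 0.28 in limma). The highest values of Ms4a6c, Ccr2, Adgre1 and F13a1 on any array were 1864.3, 1587.4, 1274.7 and 885.5 units, while Cd14 and Csf1r were at 65.1 units or less on every array. Of 11 endothelial and stromal markers 6 to 7 were above it in Nras GFPhigh HSCs, with sums of 4245.4 to 8625.8, against 1446.4 to 4769.4 over the other 3 groups. Among them Cxcl12 read 601.8 to 1411.6 units in Nras GFPhigh and 3.9 to 27.6 in Nras GFP- HSCs (5.93 ± 1.07, SE, on the log2 scale, unadjusted p = 9.43e-05, adjusted p = 0.105 in limma). In wild-type mice Cxcl12 read 21.6 to 166.6 in GFPhigh and 44.9 to 239.4 in GFP- HSCs. Col3a1 and Emcn had log2 fold changes of 5.77 ± 1.85 and 3.35 ± 0.98 in Nras mice (adjusted p = 0.272 and 0.252), while Plvap was at 10.2 units or less on every array. The summed signal of 9 lymphocyte markers, 2 to 5 of them above the median of these arrays, was 1480.4, 2871 and 520.9 in Nras GFPhigh replicates 1, 2 and 3, against 297.3 to 883.2 over the other 3 groups. The sum of 6 erythroid markers, 2 to 4 of them above the median of these arrays, was 9789.9 to 16248 in Nras GFPhigh HSCs, against 8274.9 to 14520.1 over the other 3 groups. Over both genotypes, GFPhigh against GFP- HSCs, Cd4 had 2.56 ± 0.70 (SE, unadjusted p = 0.00286, adjusted p = 0.383) and Alas2 3.64 ± 1.19 (unadjusted p = 0.00935, adjusted p = 0.454) in limma. Of 5 tested erythroid markers 1 was higher and 1 lower at an unadjusted p under 0.05 there, against 8.87% of tested genes. The lower 1, Epor, averaged 37.9 ± 43.5 units in Nras GFPhigh and 169 ± 155 in Nras GFP- HSCs (SD, n = 3 each). In wild-type mice Epor averaged 29.9 ± 19.2 in GFPhigh and 214 ± 128 in GFP- HSCs. The part of all these markers in the KLF signals was not tested. Without Nras GFPhigh replicate 1, Klf6 was still higher in GFPhigh HSCs over both genotypes by 0.68 and Klf2 by 1.20, while Klf10 was at 0.05.

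**Figure D4:**
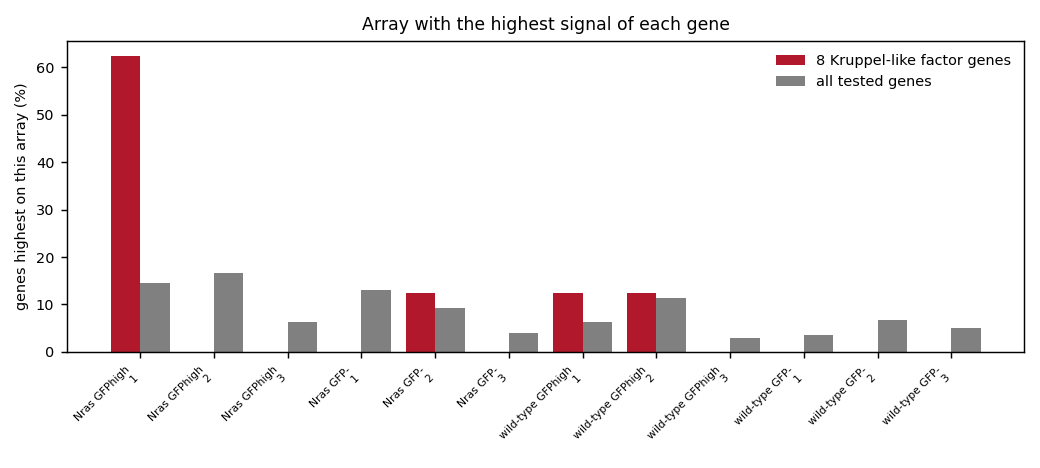
Share of genes whose highest signal over the 12 arrays fell on each array, for the 8 KLF genes and for all tested genes, with arrays ordered by group and replicate. Nras GFPhigh replicate 1 holds 5 of the 8 KLF genes and 14.5% of all tested genes.

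Some members varied together across the arrays. The Pearson correlation of log2 signals over the 12 arrays was 0.85 between Klf2 and Klf6, 0.80 between Klf4 and Klf9, 0.74 between Klf4 and Klf7 and 0.64 between Klf7 and Klf9. Without Nras GFPhigh replicate 1 these 4 were 0.76, 0.75, 0.76 and 0.63. Klf6 and Klf10 had 0.36, which was -0.01 without that array. Klf4, Klf7 and Klf9 all had their lowest value on wild-type GFPhigh replicate 2 (2, 5.3 and 2297.5 units). The pairs among them thus share 1 low array, and their correlations without it were not computed. Klf7 and Klf13 ran in opposite directions, with -0.73. The pairs share the same arrays, groups and depth of signal, so these values are a description of the 12 arrays. Of all tested genes, those most like Klf6 were Lasp1 (0.92) and Ier2 (0.91), and those most like Klf2 were Dusp26 (0.93) and Samm50 (0.91). For Klf9 they were Tmem63b and Sorl1 (0.93 each), for Klf10 Cdk2ap2 (0.95) and Lncppara (0.93), for Klf13 Rp2 (0.92) and Nf1 (0.89), and for Klf3 Ing4 (0.95) and Dync2li1 (0.94). For Klf4 they were Eid3 and Fem1c (0.94 each) and for Klf7 Tom1l1 (0.95) and Cep85 (0.94).

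Of 9 other KLF genes 8 were on the array and 5 were tested, and none passed limma's adjusted threshold between GFPhigh and GFP- HSCs over both genotypes or had an unadjusted p under 0.05. Klf16, a Sin3-binding repressor, had -1.40 ± 0.75 (SE), Klf14 a 2.00-fold higher mean with a standard error of 0.65 on the log2 scale, Klf11, another TGF-beta-inducible gene, -0.64 ± 0.61, Klf12 -0.56 ± 1.04, and Klf1, the erythroid factor, 0.50 ± 2.00. In Nras mice alone Klf14 had 2.02 ± 0.92 (unadjusted p = 0.0467), and in GFP- HSCs Klf11 had -2.03 ± 0.87 in Nras against wild-type mice (unadjusted p = 0.0364), with adjusted p-values of 0.408 and 0.983.

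Genes around the KLFs were described from 5 lists in the same comparison, GFPhigh against GFP- HSCs over both genotypes, in which 0 members of any list passed the adjusted threshold. Their counts stand against 8.87% of tested genes at an unadjusted p under 0.05, 4.36% in the higher direction. Of 12 KLF cofactors, Sin3b, a scaffold of the Sin3 corepressor, had 0.36 ± 0.15 (SE) and Hdac2, a histone deacetylase, -0.26 ± 0.11. These were the 2 with an unadjusted p under 0.05, 1 in each direction (2 of 12, against 8.87%), followed by the coactivator gene Ep300 at -0.70 ± 0.48, and the list's median was -0.02. The branch from MEK5 through ERK5 to the MEF2 factors had 7 tested genes, 0 of them at an unadjusted p under 0.05, with a median of 0.16. Mef2c had 0.39 ± 0.18, Mef2d 0.71 ± 0.47 and the kinase gene Map3k2 -0.61 ± 0.51. Mef2c averaged 8608 ± 2446 units in Nras GFPhigh, 4826 ± 575 in Nras GFP-, 4205 ± 944 in wild-type GFPhigh and 4252 ± 797 in wild-type GFP- HSCs (SD, n = 3 each). All 3 Nras GFPhigh values were above all other values of Mef2c, a pattern whose share over all tested genes was not counted. For single pairs of groups, 6.7% of tested genes were higher without overlap in Nras GFPhigh than in Nras GFP- HSCs. Against wild-type GFPhigh HSCs that share was 5.12%.

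Of 11 tested target genes of KLFs 2 had an unadjusted p under 0.05, both higher in GFPhigh HSCs, against 4.36% of tested genes, and the list's median was 0.58, where that of all tested genes was 0.02. They were Cdkn1c, which encodes the cyclin-dependent kinase inhibitor p57, at 2.01 ± 0.49 (SE, adjusted p = 0.301), and the integrin gene Itgb7 at 1.17 ± 0.48. Cdkn1a, which encodes the inhibitor p21 and is a target of Klf4 and Klf6, had 1.81 ± 0.997 with an unadjusted p = 0.0929. Of 16 immediate early genes, Egr1 had 0.59 ± 0.18 and Ier2 1.22 ± 0.52, and Myc, a driver of growth and proliferation, -0.62 ± 0.21. These 3 of 16 had an unadjusted p under 0.05, against 8.87% of tested genes, and the list's median was 0.49. Of 8 glucocorticoid-induced genes 0 had an unadjusted p under 0.05, and the median was 0.38, with Dusp1 at 0.42 ± 0.30, Zbtb16 at -1.25 ± 0.92 and Sgk1 at 1.69 ± 1.27.

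**Figure D5:**
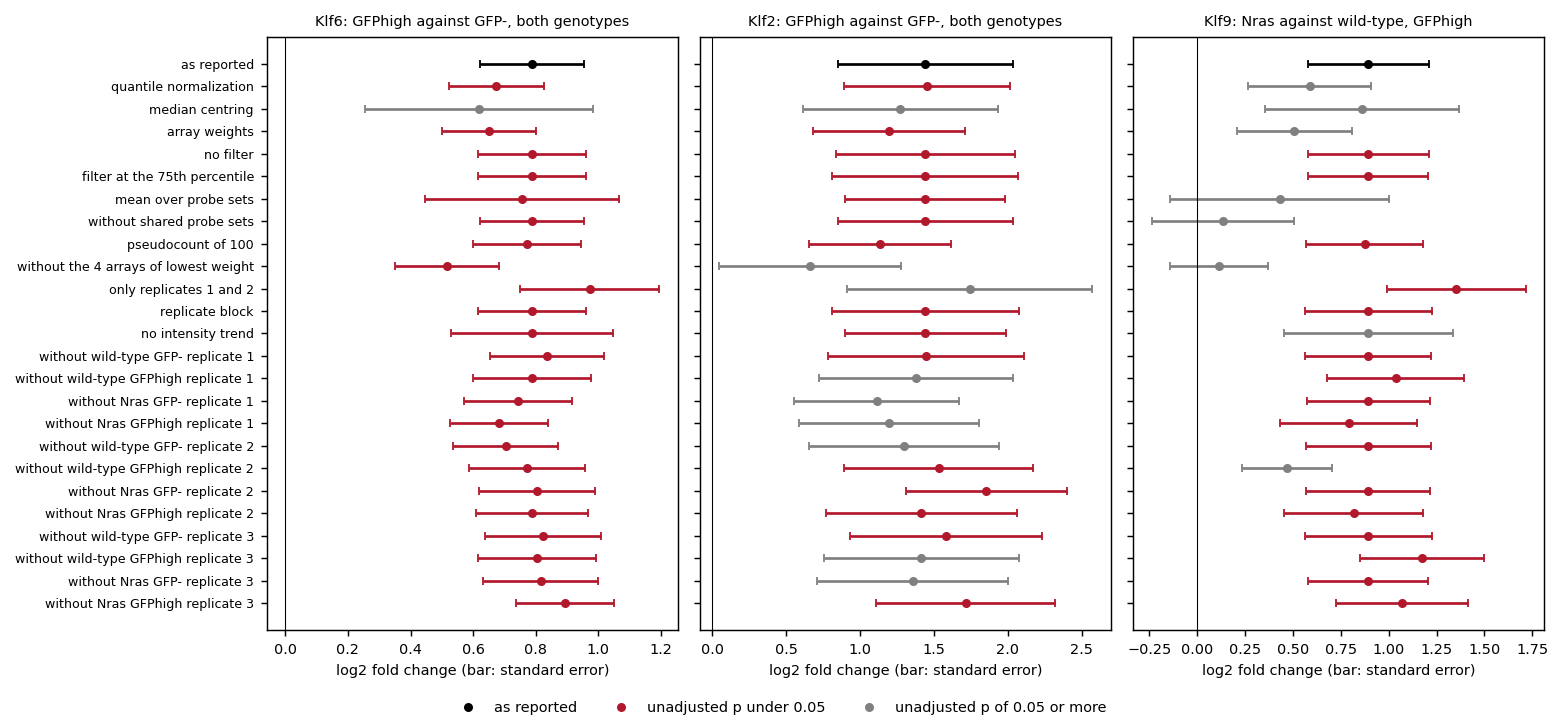
Log2 fold changes with standard errors of Klf6 and Klf2 in GFPhigh against GFP- HSCs over both genotypes, and of Klf9 in Nras against wild-type GFPhigh HSCs, under each processing alternative. Klf6 stays between 0.52 and 0.97, Klf2 between 0.66 and 1.86, and Klf9 between 0.11 and 1.35.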

How the data were processed

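Total RNA of sorted HSCs from 12 samples, 3 in each of 4 groups, was measured on Affymetrix arrays, 1 per sample. The deposited values are intensity in linear signal units, made with MAS5 per the submitters' processing notes. The MAS5 version was not given in the sources used here. Each sample has its own column. The deposited table had 45101 probe sets and no further column of values (0 unused). Trimmed by 2% at each end, array means were 500.0 to 501.3.

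Signals were taken to log2 with a floor of 0.1 for 3 values at 0, without further normalization. The 34945 probe sets with 1 gene symbol were used, and 64 controls, 932 probe sets with several symbols and 9160 with none were not. Of 18193 genes 12083 were tested, those above the array median on at least 3 arrays. limma 3.58.1 in R 4.3.3 fitted 1 mean per group over all 12 arrays, with an intensity trend, and gave 7 two-sided comparisons. p-values were adjusted by Benjamini-Hochberg over all tested genes, with a threshold of 0.05. The number of arrays limits the precision. Single probe sets were fitted over all 34945.

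The members and lists were chosen with earlier results of these data known. Named genes were the 8 members, every tested other KLF gene, and the 2 genes most correlated with each member. Of each list of genes around the KLFs, the 3 of smallest p in GFPhigh against GFP- HSCs over both genotypes were named. Cell type markers were named without this rule, and the 3 of smallest p are not given for every marker list. Mef2c levels by group, the second-brightest probe sets of Klf6 and Klf9, and the single comparisons given for Klf11 and Klf14 were singled out after their values were seen. No 2 arrays had identical values, and correlations between arrays ran from 0.58 to 0.87. Alternatives were quantile normalization, median centring, array weights, 2 other filters, the mean over probe sets, leaving out shared probe sets, a pseudocount of 100, only the groups compared, leaving out the 4 arrays of lowest weight, only replicates 1 and 2, a replicate block, no intensity trend and each array left out in turn. The steps were tested on simulated data.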

Additional observations from a re-analysis of the deposited data

How the results depend on the processing

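The count of KLF genes past the adjusted threshold was 0 in all 7 comparisons and in every alternative, except that Klf6 passed in GFPhigh against GFP- HSCs of Nras mice without Nras GFPhigh replicate 3, so that leaving out 1 array gave 0 to 1 genes there. In that fit 161 of all tested genes passed, against 0 with all arrays. Over the alternatives, the number of all tested genes that passed ran from 0 to 16 for GFPhigh against GFP- HSCs over both genotypes, 0 to 4 in wild-type, 0 to 161 in Nras, 0 to 5 for Nras against wild-type over both populations, 0 to 8 in GFP-, 0 to 17 in GFPhigh and 0 to 1 for the interaction. With a replicate block 0 KLF genes passed in each comparison, and no call of a KLF gene changed. The replicate numbers were not taken as a pairing, since deviations from the group means of equal-numbered samples correlated by only -0.04 to 0.15. However, 11 of 12 samples correlated best with a sample of their own number, a hint from the data and not from the design, and replicate 3 of every group shared the sex-linked difference. Over 1376 values of single genes, 98 changed sign. Klf6 in GFPhigh against GFP- HSCs over both genotypes kept an unadjusted p under 0.05 in 23 of 24 alternatives. Klf6 lost it only under median centring, where its log2 fold change was 0.62. Its adjusted p from limma ranged from 0.0605 to 0.761, and the difference was 0.42 in replicate 3 alone. Klf2 kept it in 15 of 24, and Klf9 in Nras against wild-type GFPhigh HSCs in 17 of 25. The causes of these shifts were not tested. With 3 arrays per group, differences in Klf4 and Klf7 above their standard errors could still miss an unadjusted p under 0.05 in limma. An example was Klf4 in Nras against wild-type GFPhigh HSCs, with 3.59 ± 1.87 (SE, unadjusted p = 0.077).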
